A study of Mus musculus with 8 samples.

Results

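The comparison described here is that of RNA recovered with an anti-CPEB2 antibody from mammary cells of Cpeb2 knockout (KO) mice with RNA recovered with the same antibody from wild-type (WT) mice, the immunoprecipitates being called KO IP and WT IP. It was made over 3' untranslated regions (3' UTRs), each one row of the deposited table, whose normalized count averaged at least 43 over all libraries. This floor left 5317 of 20586 rows. KO IP and WT IP held 2 libraries each, 1 from RIP experiment 2 and 1 from experiment 3, out of 8 libraries in 4 groups in the series. The libraries of the starting lysates entered only through the floor, which averages over them too. A row high in 1 group could therefore pass the floor through that group. Per the labels, mice of both genotypes carried the strain label C57BL/6J 129, the mammary glands were digested with collagenase and hyaluronidase, red cells were lysed, and an epithelium-enriched fraction was used without culture. The labels number the preparations within each genotype and do not state that they came from different animals, nor which part of Cpeb2 was deleted.

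CPEB2 is a member of the CPEB family, named for cytoplasmic polyadenylation element binding, whose proteins recognise uridine-rich elements in the 3' UTR of mRNAs and control the length of the poly(A) tail and the translation of the mRNA. In an RNA immunoprecipitation the antibody pulls down the protein together with the RNA bound to it. RNA that sticks to the antibody or the beads without the protein also comes down, and an immunoprecipitate from cells that lack the protein measures that background.

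For each row the authors deposited 1 value per group, on a scale that fits log2(normalized count + 1), being 0 where nothing was counted. How the 2 libraries of a group were combined, and whether counting used strand, the sources used here do not say. The columns of single libraries carry only a sequencing index that the labels do not pair with a sample, so they were not used. The values below therefore have no error and no test, the depth of the libraries is unknown, and no difference can be set against the spread between replicates. Differences are WT IP minus KO IP on the log2 scale, so that a positive value means a lower level in KO IP. A difference of at least 1, which is 2-fold on the scale of count plus 1, was counted as past the mark. These are levels of RNA in an immunoprecipitate, not set against the lysates. A difference in recovery therefore cannot be told apart from a difference in the amount of the RNA in the cells. Nor can fewer cells of a type be told apart from less RNA per cell.

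Over the 5317 rows the median value was 6.61 in KO IP and 6.81 in WT IP. The 2 groups ranked the rows alike, with a Spearman correlation across rows of 0.899 and a Pearson correlation of 0.914. These describe rows of the same libraries, and rows are not independent replicates. The median difference was 0.13 and 59.6% of the rows had a difference above 0. Most rows differed little, with 65.8% within 0.5 of equality and the central range, from the 5% to the 95% row, at -0.65 to 1.11. The extremes lay on the side of a lower level in KO IP. There, 360 rows, 6.77% of those measured, were past the 2-fold mark, while 45 rows, 0.846%, were past it with a higher level in KO IP. At a difference of 2, which is 4-fold, 19 rows were lower and 1 was higher in KO IP. With the median of all rows subtracted, which sets the typical row to equal levels, 251 rows were lower and 84 higher in KO IP by at least 1.

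**Figure D1:**
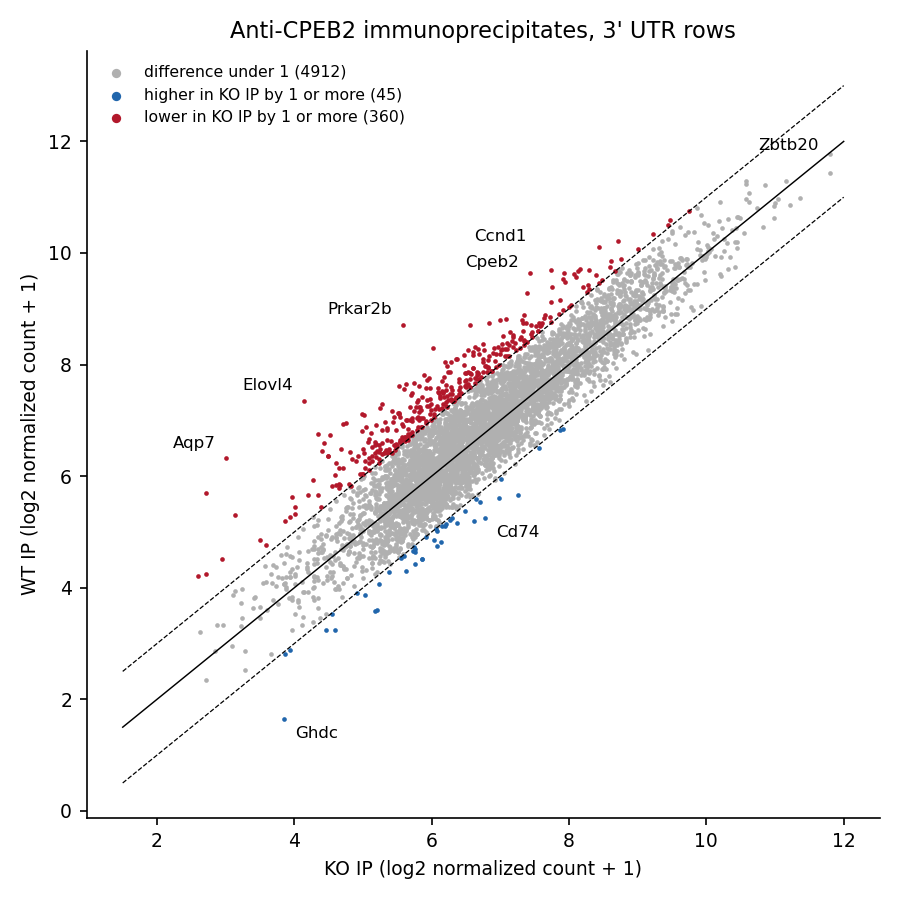
Group values of 5317 rows of 3' UTRs, KO IP on the horizontal axis and WT IP on the vertical axis, both as log2(normalized count + 1). The solid line marks equal levels and the dashed lines a difference of 1 in either direction. The 360 rows above the upper dashed line outnumber the 45 below the lower one, and the 10 genes with the highest levels lie between the dashed lines.

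The knocked-out gene itself was among the rows that differed most. The Cpeb2 row, transcript ENSMUST00000114065, lies at chromosome 5, 43285947 to 43289724 on the plus strand (mm10) and is 3778 bases wide. Its value was 7.43 in KO IP and 9.64 in WT IP, a difference of 2.21. In normalized counts this is 171 in KO IP and 795 in WT IP. The 3' UTR was thus still counted in KO IP, and without knowledge of the deleted part of the gene the row does not check the genotype labels. The paralogues were spread over both directions. Cpeb3 had 5.17 in KO IP and 6.57 in WT IP, a difference of 1.40 and past the mark. Its normalized count was 34.9 in KO IP and 93.8 in WT IP. With an average of 52.7 over all libraries, its place over the floor leaned on WT IP. Cpeb4 had 8.47 in KO IP and 9.01 in WT IP, a difference of 0.54. Cpeb1 had 5.48 in KO IP and 5.12 in WT IP, a difference of -0.36, the opposite direction. All 4 members of the family passed the floor and their median difference was 0.97. Per kilobase of 3' UTR, the normalized count of Cpeb2 was 45.3 in KO IP and 210 in WT IP, that of Cpeb3 9.79 in KO IP and 26.3 in WT IP, and that of Cpeb4 85.9 in KO IP and 125 in WT IP.

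Rows near Cpeb2 on chromosome 5 were examined on their own. Within 10 Mb on either side, 29 rows passed the floor, with a median difference of -0.15. Of these, 3 were lower in KO IP by at least 1, which is 10.3% beside 6.77% of all rows, namely Cd38 with 1.30, Nelfa with 1.24 and Ldb2 with 1.003. The 2 higher in KO IP, Fam193a with -1.60 and Fam53a with -1.09, are 6.90% beside 0.846% of all rows. With 29 rows these shares rest on few rows each, and apart from Fam193a the genes are named after their values were seen.

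The largest differences with a lower level in KO IP belonged to genes of varied function. Aqp7, a channel for water and glycerol (chromosome 4, 41033074 to 41034245), had 3.005 in KO IP and 6.32 in WT IP, a difference of 3.32. Elovl4, an elongase of very long-chain fatty acids (chromosome 9, 83778692 to 83780539), had 4.14 in KO IP and 7.35 in WT IP, a difference of 3.22. Prkar2b, which encodes a regulatory subunit of protein kinase A (chromosome 12, 31958476 to 31960388), had 5.58 in KO IP and 8.71 in WT IP, a difference of 3.14. In normalized counts Elovl4 stood at 16.6 in KO IP and 162 in WT IP. Its average over all libraries was 54.9 and that of Aqp7 47.4, so the place of both over the floor leaned on WT IP. Prkar2b stood at 46.8 in KO IP and 419 in WT IP, whereas Aqp7 stood at 7.03 in KO IP and 78.9 in WT IP, so the Aqp7 difference rests on few counts in KO IP. Foxq1, a forkhead transcription factor (chromosome 13, 31560120 to 31560970), was likewise low, with 2.71 in KO IP and 5.70 in WT IP and a difference of 2.997.

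The other 11 of the 15 largest differences in this direction ran from 2.40 to 2.08. Signalling and polarity genes made up several of them. Fzd2, a Frizzled receptor for Wnt ligands, had 4.35 in KO IP and 6.75 in WT IP, a difference of 2.40. Sostdc1, a secreted inhibitor in the BMP and Wnt pathways, had 3.13 in KO IP and 5.30 in WT IP, a difference of 2.17. Vangl2, a core component of planar cell polarity, had 4.43 in KO IP and 6.59 in WT IP, a difference of 2.15. Plxna2, a semaphorin receptor, was the best counted of these, with 6.56 in KO IP and 8.70 in WT IP and a difference of 2.14. Transcription factors were a further group. Pou3f1 had 4.51 in KO IP and 6.74 in WT IP, Sox18, a factor of vessel and lymphatic development, had 4.71 in KO IP and 6.94 in WT IP, and Prdm16, a zinc finger factor of brown fat, had 4.98 in KO IP and 7.11 in WT IP. Their differences were 2.23, 2.22 and 2.12. The normalized count of Sox18 was 25.2 in KO IP and 121 in WT IP. Its average over all libraries was 49.9, so its place over the floor leaned on WT IP. Gcnt1, a Golgi transferase that branches O-linked glycans, had 6.01 in KO IP and 8.30 in WT IP, a difference of 2.29. Its normalized count was 63.6 in KO IP and 315 in WT IP. With an average of 106 over all libraries, the place of Gcnt1 over the floor also leaned on WT IP. The cell cycle kinase gene Cdk6 had 4.75 in KO IP and 6.95 in WT IP, a difference of 2.21. Sipa1l2 had 5.02 in KO IP and 7.10 in WT IP, a difference of 2.08.

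The largest differences with a higher level in KO IP were smaller. Ghdc (chromosome 11, 100766032 to 100766802) was the only row past 4-fold, with 3.85 in KO IP and 1.64 in WT IP and a difference of -2.21. It rests on a normalized count of 13.5 in KO IP and 2.12 in WT IP, both under the floor. The row passed with an average of 44.6 over all libraries, lysates included. The other 14 lay between -1.60 and -1.18. Fam193a had 5.20 in KO IP and 3.60 in WT IP. Dmbt1, a secreted glycoprotein of mucosal defence (chromosome 7, 131121236 to 131121626), had 7.26 in KO IP and 5.67 in WT IP, a difference of -1.59, and was the best counted of the 15 in KO IP. Greb1, a gene known to respond to oestrogen, had 5.17 in KO IP and 3.58 in WT IP, also a difference of -1.59. Cd74, the invariant chain of class II antigen presentation (chromosome 18, 60812163 to 60812646), had 6.78 in KO IP and 5.24 in WT IP, a difference of -1.54. Padi2, an enzyme that converts arginine in proteins to citrulline, had 6.62 in KO IP and 5.20 in WT IP, a difference of -1.41. Mad2l1, a component of the spindle checkpoint, had 6.99 in KO IP and 5.60 in WT IP, a difference of -1.38. Its normalized count was 126 in KO IP and 47.5 in WT IP. With an average of 63.3 over all libraries, the place of Mad2l1 over the floor leaned on KO IP.

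The remaining genes at this end included several enzymes. The cytochrome P450 gene Cyp1a1 had 6.08 in KO IP and 4.74 in WT IP, and the glutathione transferase gene Gstm1 had 6.37 in KO IP and 5.16 in WT IP. Their differences were -1.34 and -1.21. Uqcrh, a subunit of respiratory complex III, had 5.63 in KO IP and 4.30 in WT IP, a difference of -1.33, and the tyrosine phosphatase gene Ptpn5 had 5.76 in KO IP and 4.43 in WT IP, also a difference of -1.33. Lgals3, which encodes galectin-3, had 6.04 in KO IP and 4.86 in WT IP, a difference of -1.18. Among the others, D8Ertd738e had a difference of -1.31, Myh14, a non-muscle myosin heavy chain, one of -1.35, and Ccdc86 one of -1.22. The Myh14 row overlaps the row of another transcript on the same strand, and the Ccdc86 row overlaps that of Ptgdr2 on the opposite strand, so that their counts could be shared.

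**Figure D2:**
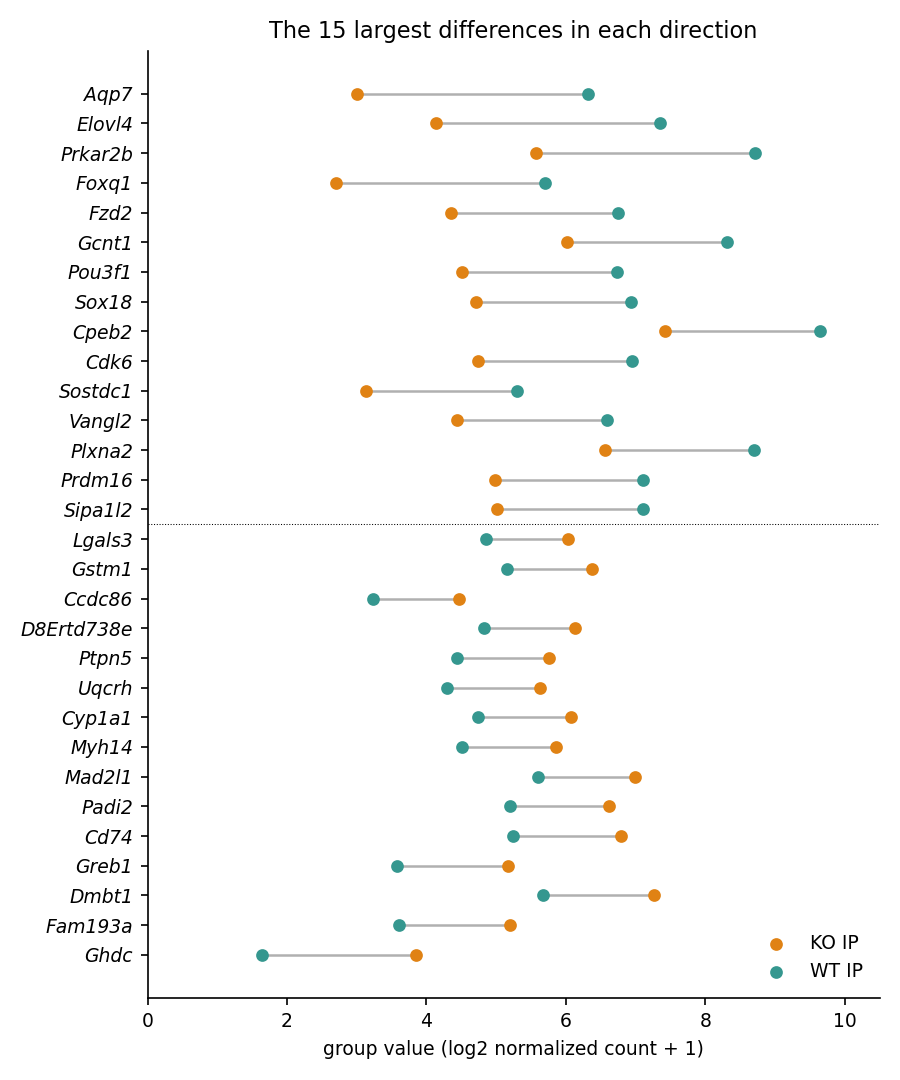
Group values of the 15 rows with the largest differences in each direction, as log2(normalized count + 1), with KO IP in orange and WT IP in green, 1 value per group. The rows above the dotted line were lower in KO IP, from Aqp7 with 3.32 to Sipa1l2 with 2.08, and those below it were higher in KO IP, down to Ghdc with -2.21.

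The 10 genes with the highest levels in the immunoprecipitates did not pass the 2-fold mark. They are too few to give a share for highly recovered RNA. With all rows divided into 10 bins by the mean of both group values, the highest bin held 531 rows. Of these, 28 were lower in KO IP past the mark and 0 higher. The 28 rows are 5.27%, beside 6.77% of all rows. Among the 10 with the highest mean of both group values were Zbtb20, a zinc finger repressor, Igfbp5, an insulin-like growth factor binding protein, and Prlr, the prolactin receptor. Zbtb20, the widest row at 23858 bases and one that overlaps another row on the same strand, had 11.79 in KO IP and 11.77 in WT IP. Igfbp5 had 11.81 in KO IP and 11.44 in WT IP, a difference of -0.37, and Prlr had 11.16 in KO IP and 11.29 in WT IP, a difference of 0.13. Per kilobase of 3' UTR the order was another one. Glul, glutamine synthetase, had a normalized count of 1195 per kilobase in KO IP and 1544 in WT IP, whereas Zbtb20 had 149 in KO IP and 147 in WT IP. The largest difference among the 10 was that of Timp3, an inhibitor of metalloproteinases, with 10.58 in KO IP and 11.29 in WT IP, a difference of 0.72. Nfib had a difference of 0.65, and the other 8 lay between -0.38 and 0.37, with Cd164, Slc12a2, Lpp and Thbs1 all below 0.

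The difference followed the width of the 3' UTR. Rows over the floor were from 30 to 23858 bases wide, with a median of 1819 bases. The rows were ordered by width and divided into 10 bins of equal size. In the narrowest bin, with a median width of 415 bases, the median value was 5.92 in KO IP and 5.75 in WT IP, and the median difference was -0.28, with 31.4% of the rows above 0. The median difference passed 0 in the third bin, which began at 911 bases, and reached 0.33 in the ninth and 0.29 in the widest bin, where 74.4% of the rows were above 0. The Spearman correlation of difference and width across rows was 0.297. The rows past the mark did not divide in the same manner in both directions. The 45 rows higher in KO IP had a median width of 576 bases, and 24 of them lay in the narrowest bin. The 360 rows lower in KO IP had a median width of 1931 bases, close to that of all rows, and their share was 4.51% in the narrowest bin, 8.27% in the ninth and 6.97% in the widest.

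**Figure D3:**
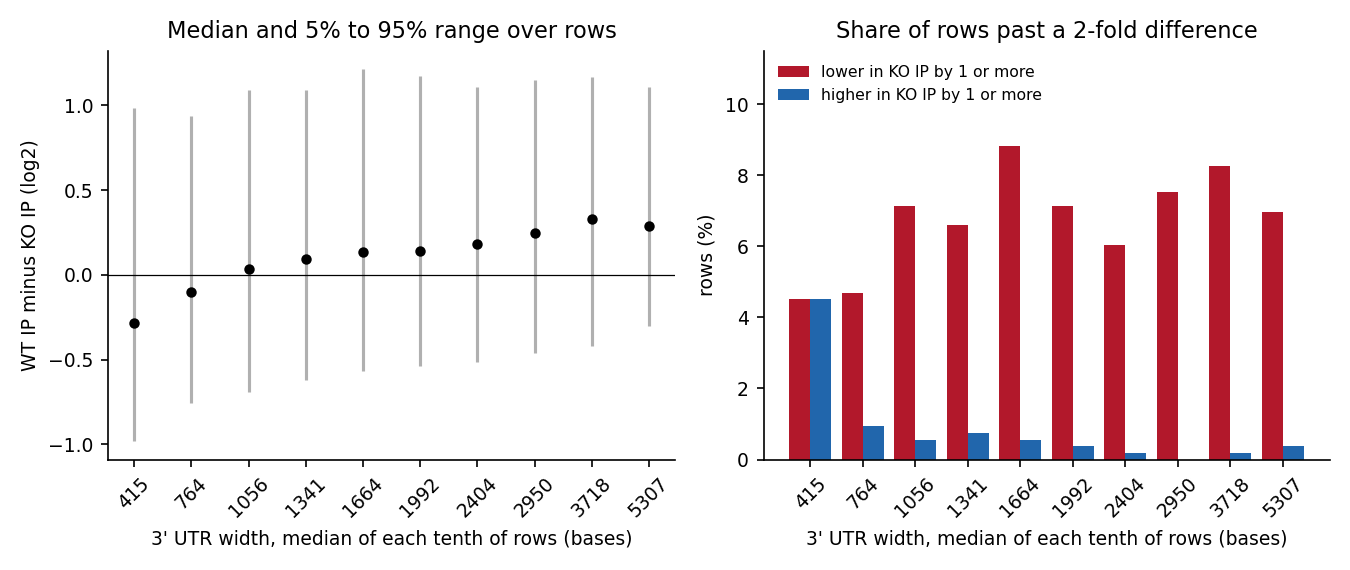
WT IP minus KO IP by 3' UTR width, in 10 equal bins of the 5317 rows labelled by their median width in bases. On the left, points are medians and bars run from the 5% to the 95% row of each bin. On the right, the bars give the percentage of rows at least 2-fold lower (red) or higher (blue) in KO IP. The medians run from -0.28 in the narrowest bin to 0.29 in the widest.

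The difference also varied with level, measured as the mean of both group values. Over 10 bins of level the median difference was -0.11 in the lowest and 0.23 in the highest, and the range from the 5% to the 95% row narrowed from 1.90 to 1.42 units of log2. Of the 45 rows higher in KO IP, 22 were in the lowest bin and 0 in the 3 highest. Rows lower in KO IP were found at every level, from 4.70% in the lowest bin to 8.85% in the seventh. Width and level were themselves related, with a Spearman correlation of 0.406 across rows. When the rows were divided into 5 classes of width and 4 of level, the narrowest class had a median difference below 0 at all 4 levels, between -0.24 and -0.10. The widest class had one above 0 at all 4 levels, between 0.14 and 0.39. In these outer classes the sign of the median thus followed width at each of the 4 levels.

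**Figure D4:**
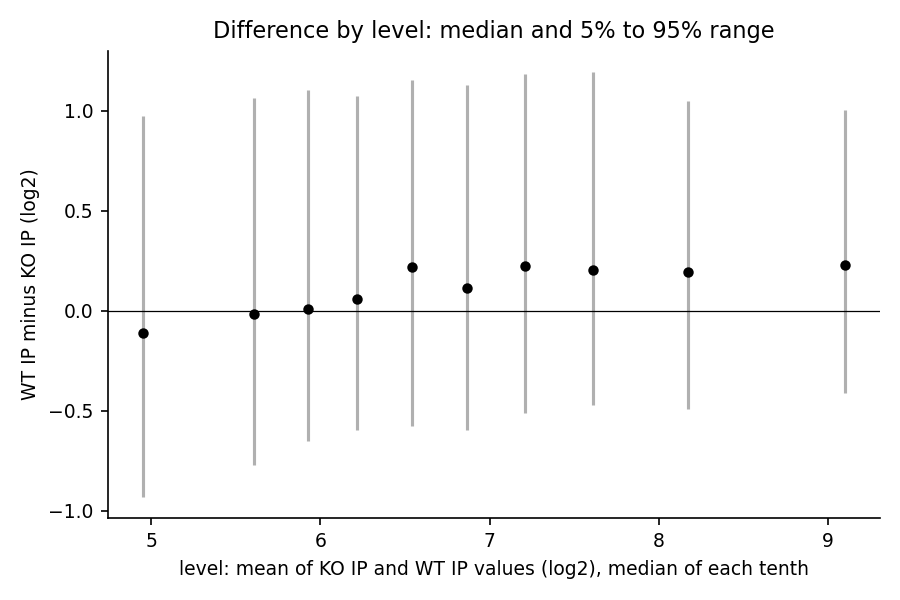
WT IP minus KO IP by level, in 10 equal bins of the 5317 rows placed at their median level (mean of the KO IP and WT IP values, log2). Points are medians and bars run from the 5% to the 95% row. The medians lie at -0.11 in the lowest bin and 0.23 in the highest, and the bars shorten with level.

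Gene lists were described by their counts and medians beside those of all rows, which were 6.77% lower in KO IP, 0.846% higher and a median of 0.13. Because width differs between lists, each list median is followed by its value after the running median of the difference over width was subtracted, called the width-adjusted median. At this floor 30 of the 61 lists had a median above that of all rows, and the 3 lists of the 3' UTR machinery were among them. Of 27 rows of 3' UTR binding proteins, 2 were lower in KO IP past the mark, which is 7.41% beside 6.77% of all rows. The median of this list was 0.52 and the width-adjusted median 0.24. Rbms2, a single-strand RNA binding protein, had 8.10 in KO IP and 9.56 in WT IP, a difference of 1.46. Ago1, an Argonaute of the microRNA pathway, had 7.13 in KO IP and 8.58 in WT IP, a difference of 1.45. Msi2, a Musashi protein, had 8.72 in KO IP and 9.70 in WT IP, a difference of 0.98. Igf2bp2 had -0.30, the lowest of this list. Of 12 rows of the CCR4-NOT complex and its adaptors, which shorten poly(A) tails, 2 were lower past the mark, with a list median of 0.45 and a width-adjusted median of 0.24. At a floor of 10 this median was 0.0256, below the 0.0631 of all rows there. These were Tob1, with 6.79 in KO IP and 7.97 in WT IP, and Tob2, with 7.59 in KO IP and 8.71 in WT IP, both adaptors that recruit the deadenylase, whereas Cnot4 had -0.56. Of 11 rows of cleavage and polyadenylation factors 1 was lower, Cpsf2, a subunit of the cleavage complex, with 5.23 in KO IP and 6.43 in WT IP. That list's median was 0.32 and its width-adjusted median 0.19.

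Among plexins, semaphorins and other guidance genes 7 of 29 were lower past the mark and 0 higher, with a median of 0.46 and a width-adjusted median of 0.24. After Plxna2, the largest were Efnb1, an ephrin ligand, with 6.23 in KO IP and 7.86 in WT IP, and Sema6a, a transmembrane semaphorin, with 7.34 in KO IP and 8.89 in WT IP. The plexin genes did not all go one way, since Plxnb1 had -0.46 and Plxnb2 -0.41. In the Notch list 2 of 12 were lower, the median was 0.41 and the width-adjusted median 0.33. Nrarp, a feedback inhibitor of Notch signalling, had 5.74 in KO IP and 7.68 in WT IP, a difference of 1.94. Jag1, a ligand, had 7.91 in KO IP and 9.53 in WT IP, a difference of 1.63. Among the receptors, Notch1 had a difference of 0.86 and Notch2 one of -0.02. In the Wnt list, with a median of 0.41 and a width-adjusted median of 0.29, 3 of 21 were lower, all receptors or co-receptors. Besides Fzd2 these were Fzd4, with 6.50 in KO IP and 7.60 in WT IP, and Lrp6, with 9.45 in KO IP and 10.51 in WT IP. The ligands Wnt4 and Wnt7b had -0.29 and -0.56.

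Among cadherins and protocadherins 3 of 13 were lower, led by Pcdh17 with 5.05 in KO IP and 6.88 in WT IP, a difference of 1.83. This list had a median of 0.37 and a width-adjusted median of 0.05. It holds protocadherin rows that overlap one another, and without overlapping rows its median was 0.719. Among claudins and tight junction genes 3 of 11 were lower, namely Cldn12, Cldn1 and Tjp1, with differences of 1.31, 1.21 and 1.12. Tjp1, the scaffold protein ZO-1, had 7.57 in KO IP and 8.69 in WT IP. The claudin list's median was 0.28 and its width-adjusted median 0.50. Of 28 rows of the BMP and TGF-beta pathway 2 were lower, Sostdc1 and the ligand Bmp2 with 1.10, and the lowest was Fstl1 with -0.58. These 2 are 7.14%, close to the 6.77% of all rows. The pathway's median was 0.27 and its width-adjusted median 0.05.

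The elongase and desaturase list had all 8 of its measured members above 0, 4 of them lower in KO IP past the mark, with a median of 0.90, the highest of the lists with at least 7 measured rows, and a width-adjusted median of 0.65. Elovl4, whose place over the floor leaned on WT IP, led the list. After it came Elovl6, which lengthens saturated and monounsaturated chains, with a difference of 1.19, and Elovl5, an elongase of polyunsaturated chains, with 7.55 in KO IP and 8.60 in WT IP. At the other end the desaturase genes Scd2 and Scd1 had differences of 0.48 and 0.09. In the list of BTB proteins of the KCTD and Kelch-like families 5 of 15 were lower, led by Kctd12b with 5.69 in KO IP and 7.46 in WT IP and Klhl12 with 5.42 in KO IP and 7.16 in WT IP. That list's median was 0.40 and its width-adjusted median 0.20. At a floor of 100 the median was 0.176, beside 0.168 for all rows there. In the forkhead list 3 of 13 were lower, and after Foxq1 these were Foxj2 with 1.26 and Foxo4 with 1.05. The forkhead median was 0.51 and the width-adjusted median 0.30.

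Of 26 cyclins and cyclin-dependent kinases 4 were lower in KO IP, with a list median of 0.04 and a width-adjusted median of -0.01. The median was 0.187 at a floor of 100, beside 0.168 for all rows there. Ccnd1, the cyclin that pairs with CDK4 and CDK6 at entry into the cell cycle (chromosome 7, 144929931 to 144932606), had 7.74 in KO IP and 9.69 in WT IP, a difference of 1.94. Its row overlaps that of Oraov1 on the opposite strand, which had 6.28 in KO IP and 8.05 in WT IP and is named after its values were seen, and reads in the shared stretch are uncertain for both. Ccng2 had a difference of 1.22, while Ccng1 had -0.37 and Cdk18 -0.80. Among 13 protein kinase A genes Prkar2b was the 1 past the mark, and the list's median was 0.46, with a width-adjusted median of 0.19. The catalytic subunit gene Prkacb had 8.08 in KO IP and 8.62 in WT IP, a difference of 0.53, and the inhibitor gene Pkig had -0.63. Of 27 insulin and IGF genes 5 were lower, including the receptor gene Insr with 8.62 in KO IP and 9.85 in WT IP and Pik3c2b with 5.92 in KO IP and 7.58 in WT IP. The list's median was 0.21 and its width-adjusted median 0.02. The list of RANK and progesterone signalling had 1 of 19 past the mark, Ccnd1, with a median of 0.13 and a width-adjusted median of 0.10. Without overlapping rows, which leaves out Ccnd1, the median was 0.0688, beside 0.143 for all rows without an overlap. At a floor of 10 the list's median was 0.0123, beside 0.0631 for all rows there. Tnfsf11, which encodes the RANKL of the study's title, lay below the floor with 2.53 in KO IP and 3.45 in WT IP.

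The lists of glycolysis, the respiratory chain, ribosomal proteins, translation initiation and the unfolded protein response had medians below 0, whereas that of 7 mitochondrial ribosomal protein rows was 0.12, with a width-adjusted median of -0.03. All 12 measured glycolytic enzymes were below 0, with a median of -0.79 and a width-adjusted median of -0.55. Only Eno1, an enolase, was past the mark, with 6.07 in KO IP and 5.01 in WT IP. Pgk1, a phosphoglycerate kinase, had -0.96, and at the other end Hk1 had -0.06. Of 18 respiratory chain rows 3 were higher in KO IP past the mark, Uqcrh, Uqcr10 and Cox6b1, with a list median of -0.32. That list's median width was 340.5 bases, and its width-adjusted median was -0.16. Of 19 ribosomal protein rows 1 was higher, Rpl27a with 6.26 in KO IP and 5.21 in WT IP, the median was -0.42 and the width-adjusted median -0.25. The median was -0.0195 at a floor of 100, and Rpl22 stood apart with a difference of 0.70. Only 19 of the 86 ribosomal protein rows in the table passed the floor. Of 28 translation initiation factors 1 was lower, Eif4ebp2, a repressor of cap-dependent initiation, with 6.82 in KO IP and 7.96 in WT IP. The median of that list was -0.26 and its width-adjusted median -0.37, and Eif5a had the lowest value of -0.72. Of 17 genes of the unfolded protein response 1 was higher, the chaperone gene Hsp90b1 with 7.88 in KO IP and 6.82 in WT IP, with a list median of -0.38 and a width-adjusted median of -0.33.

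**Figure D5:**
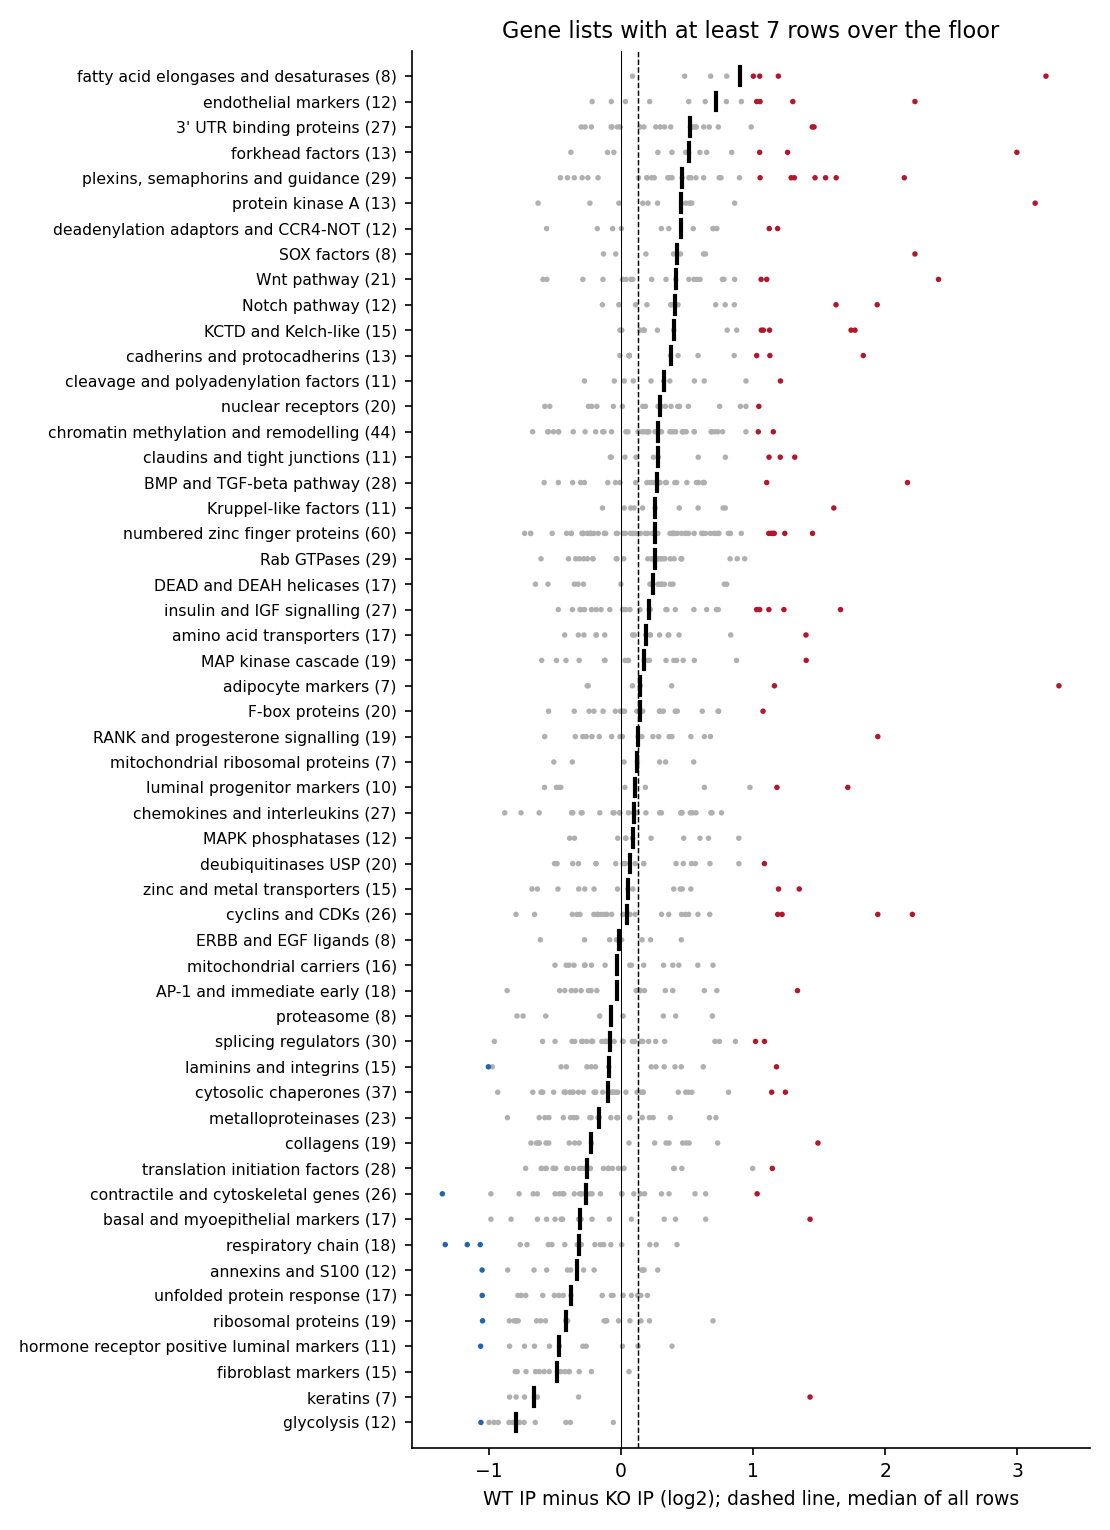
WT IP minus KO IP for the gene lists with at least 7 rows over the floor, 1 point per row, with the number of rows in parentheses. Black ticks are list medians, the dashed line is the median of all rows, and coloured points are at least 2-fold lower (red) or higher (blue) in KO IP. Medians run from 0.90 for the elongases and desaturases to -0.79 for glycolysis.

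The defining genes of mammary epithelium were present in both groups. Epcam, an epithelial adhesion molecule, had 8.81 in KO IP and 9.03 in WT IP, and Cdh1, E-cadherin, had 9.15 in KO IP and 9.58 in WT IP. The basal keratin genes Krt5 and Krt14 went opposite ways. Krt5 had 6.08 in KO IP and 7.52 in WT IP, a difference of 1.43, and Krt14 had 5.84 in KO IP and 5.21 in WT IP, a difference of -0.63. The luminal keratins Krt8 and Krt18 were both higher in KO IP by less than 1, with 8.05 and 6.29 in KO IP and 7.39 and 5.45 in WT IP. Their rows, 229 and 65 bases wide, lie in the narrowest bin of width, whose median difference was -0.28. The 7 measured keratin rows had a median of -0.66 and a width-adjusted median of -0.29. In the list of luminal progenitor markers 2 of 10 were lower in KO IP, Kit, a receptor tyrosine kinase, with 7.93 in KO IP and 9.65 in WT IP, and the factor Ehf with 8.21 in KO IP and 9.39 in WT IP. Of the 10, 6 were above 0, while Ltf had -0.58, Aldh1a3 -0.49, Lcn2 -0.47 and Mfge8 -0.46. The list's median was 0.11 and its width-adjusted median 0.27, and at a floor of 100 the median was -0.21. In the list of hormone receptor positive luminal markers 0 of 11 were lower and 1 was higher, Ly6d with -1.06, while Esr1, the oestrogen receptor, had 8.43 in KO IP and 8.44 in WT IP. Only 3 of the 11 were above 0. The list's median was -0.47 and its width-adjusted median -0.29, and at a floor of 100 the median was -0.28. In the basal and myoepithelial list 1 of 17 was lower, Krt5, and the median was -0.31, with a width-adjusted median of -0.29.

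Markers of other cell types also differed between the immunoprecipitates. Of 12 endothelial markers 4 were lower in KO IP past the mark, including Sox18, the VEGF receptor gene Flt1 with 7.86 in KO IP and 9.16 in WT IP, and the angiopoietin receptor gene Tek with 6.30 in KO IP and 7.35 in WT IP. Sox18, as said above, leaned on WT IP to pass the floor. The summed normalized count of all 19 listed endothelial markers was 2429 in KO IP and 3790 in WT IP, although Cldn5 had -0.07 and Cd34 -0.22. Of 15 fibroblast markers 0 were past the mark and 14 were below 0, with a median of -0.48 and a width-adjusted median of -0.47. Their summed count over 17 listed genes was 6689 in KO IP and 4724 in WT IP, with Dcn, decorin, at 9.49 in KO IP and 8.77 in WT IP. Of 18 leukocyte markers 2 passed the floor, Cd74 and Laptm5, both higher in KO IP, and the summed count was 338 in KO IP and 176 in WT IP. Below the floor, the pan-leukocyte gene Ptprc had 4.33 in KO IP and 4.25 in WT IP, and Itgam had 2.53 in KO IP and 0 in WT IP. Cd3e and Fcer1g, likewise below the floor, went the other way with differences of 0.91 and 0.21. Of 14 adipocyte markers 7 passed the floor and 2 were lower, Aqp7 and the fatty acid transporter gene Cd36 with 8.27 in KO IP and 9.43 in WT IP, while Fabp4 and Lpl had -0.25 and -0.26. The summed adipocyte count, which includes Cd36 and Aqp7, was 1930 in KO IP and 2425 in WT IP. The list's median was 0.15, beside 0.13 for all rows, and its width-adjusted median 0.16. At a floor of 100 the list's median was -0.08. No marker of these 4 lists was at 0 in both groups. The part of these cell types in the differences of Sox18, Aqp7, Cd74 and the other genes above was not tested.

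Of the 5317 rows, 603 overlapped another row of the table, and these had a median difference of 0.01, beside 0.14 for rows without an overlap. Among the 360 rows lower in KO IP 21 overlapped another, and among the 45 higher 3 did. At the floor itself the 20 rows just inside had a median difference of 0.01 and the 20 just outside one of 0.11.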

How the data were processed

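RNA immunoprecipitation sequencing was deposited as 1 table of 3' UTR rows on the mouse build mm10. Per the submitters' processing notes, Bowtie 0.12.9, Bowtie2 2.2.2 and DESeq2 were used, with no roles stated. The sources used here give neither the counting rule nor its use of strand. The deposited group values are on a log2 scale, 1 per group. They are 0 in both IP groups in all 3360 rows with no count. The authors also deposited a signal for each row, its normalized count averaged over all libraries, which set the floor of 43. The 8 columns named only by sequencing index were not used, so the count model planned for single libraries was replaced by differences of group values with no test, and depth is unknown. Of 5207 rows over the floor with a gene symbol, 5188 were found in the RefSeq gene table used to check symbols, and 110 rows have none.

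Differences, 10 bins of width and of level, a running median over 301 rows ordered by width, and 61 gene lists were computed in Python 3.11.15 with pandas 2.3.3 and numpy 2.4.6, and tested on simulated data. Coordinates are 1-based. Named genes are the 15 largest differences in each direction and the 10 highest levels among rows with a symbol other than a gene model, the CPEB genes, and up to 3 members at each end of a list. The genes and lists were chosen with earlier results of these data known, and some list patterns were tightened after values were seen. Alternatives were another floor, cutoff, pseudocount or centring, the width trend, and rows without overlap.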

Additional observations from a re-analysis of the deposited data

How the results depend on the processing

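No paired analysis was possible because the table gives 1 value per group and its columns of single libraries could not be assigned to samples. For the same reason the fits of counts, other normalizations, filters on counts, and leaving out each library were not run, and how far any difference exceeds the spread between libraries is unknown. Of 5317 rows, 360 were lower and 45 higher in KO IP by at least 1. These counts were 182 and 7 at a floor of 100, 754 and 315 at a floor of 10, 1045 and 364 at a cutoff of 1.5-fold, and 19 and 1 at 4-fold. A pseudocount of 8 gave 19 higher in KO IP, and subtracting the median of all rows gave 84 higher. With the median subtracted the median difference was 0, and with the width trend subtracted it was -0.000251. The median difference of the widest minus that of the narrowest bin was 0.57, and 0.00572 with the width trend subtracted, by its construction. The same contrast of the highest and the lowest level was 0.34, 0.19 at a floor of 100 and 0.0929 with the width trend subtracted. With the width trend subtracted 274 rows were lower and 40 higher in KO IP, and these held 248 of the 360 and 22 of the 45. Single genes were followed only for the 15 largest differences in each direction, the 10 highest levels and the CPEB genes, and those of them past 1 kept their direction in each setting in which they were measured. Ccdc86 was not past 1 with a pseudocount of 8, nor were Uqcrh, D8Ertd738e, Gstm1 and Lgals3 with the width trend subtracted. Leaving out overlapping rows gave 339 and 42, and 1 row per symbol gave 356 and 43.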
